A study of Bos taurus with 27 samples.

Results

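The SLC25A genes encode the mitochondrial carriers, and 39 of them were measured in the rumen epithelium (RE) of 9 Japanese Black cattle at 3 fattening stages. The members are all genes whose name on the array starts with SLC25A, 39 of 14952 gene names. Each was measured by 1 probe, which makes 39 of 15008 probes, so the choice between several probes of a gene never arose. The RE was biopsied through a rumen fistula at 14 (early stage), 21 (middle stage) and 29 months of age (late stage), and each biopsy was hybridized to 1 one-color bovine microarray of 60-base probes. All 27 arrays came from the same castrated and fistulated males, which ate a concentrate-rich ration with roughage at every stage, so that age, the time on the ration and the ration of each stage changed together and cannot be told apart. No untreated or differently fed animals were among the samples. Arrays were matched to animals by the number in their label. The stages were compared within animals as the first period (middle against early), the second period (late against middle) and the total period (late against early).

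Most mitochondrial carriers lie in the inner mitochondrial membrane and exchange nucleotides, phosphate, organic acids, amino acids and cofactors between the matrix and the cytosol. They share a fold of repeated membrane-spanning helices and are imported from the cytosol without a cleaved signal in most cases. The RE takes up volatile fatty acids from the rumen and oxidizes part of them in its mitochondria, which needs ADP and phosphate in the matrix and a return of ATP.

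The ADP/ATP carriers SLC25A4, SLC25A5 and SLC25A6 are close relatives, and their mRNAs could share signal if the probes were alike. The probes of the genes on which the results turn are therefore shown 5′ to 3′, in lower case. The 15 bases in capitals are the longest run that any 2 of the 39 probes have in common, and it joins SLC25A4 with SLC25A31, the ADP/ATP carrier known from testis.
SLC25A6: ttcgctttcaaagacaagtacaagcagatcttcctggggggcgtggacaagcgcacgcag
SLC25A5: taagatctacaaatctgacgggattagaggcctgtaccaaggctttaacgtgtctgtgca
SLC25A4: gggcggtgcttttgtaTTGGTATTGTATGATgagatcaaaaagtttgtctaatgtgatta
SLC25A31: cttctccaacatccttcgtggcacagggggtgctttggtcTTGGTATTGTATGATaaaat
SLC25A11: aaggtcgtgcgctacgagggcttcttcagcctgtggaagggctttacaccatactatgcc

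In the bosTau6 (UMD 3.1) coordinates of the array design, the SLC25A6 probe lies at chrUn_GJ060129:3884-3943 on the plus strand, on a piece of sequence that the build had not placed on a chromosome. The SLC25A5 probe lies at chrX:3700039-3700098 (plus), the SLC25A4 probe at chr27:14549642-14549701 (plus), the SLC25A31 probe at chr17:30292099-30292158 (minus) and the SLC25A11 probe at chr19:27091421-27091480 (plus). Exon and UTR annotations were not used here. The probes of SLC25A4, SLC25A5 and SLC25A6 had no common run longer than 6 bases, and no SLC25A probe shared 20 or more bases with a probe of another gene name. The GC content of the 39 probes ran from 28.3 to 73.3% (median 45.0%).

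A level is the log2 of the background-subtracted intensity relative to the median of its array, so 0 is the median probe of that array. Middle-stage arrays were the dimmest, with a median intensity of 8.22 to 28.7 against 35.2 to 48.6 at the early and 32.2 to 47.0 at the late stage. A probe is called detected on an array where the scanner software marked its signal as well above background. Detected probes made up 48.5 to 71.5%, 68.8 to 78.1% and 68.4 to 73.7% of all probes at the middle, early and late stage. Late-stage arrays shared no slide and no scan day with the others, so stage and slide cannot be told apart there. Early and middle stages met on 1 slide, which held 7 middle-stage arrays and the early-stage array of animal 9. Of the 10 stratified epithelium markers, 10 were detected on all 9 arrays at the early and late stages and 9 at the middle stage. The extraction text of the labels names liver and neutrophils. Of 7 hepatocyte markers, ALB was detected on no array, while APOA1 and TTR were detected on all early and late arrays. APOB, TF, SERPINA1 and FGB were each detected on at most 2 arrays of any stage. Of the 7, 5 were higher and 0 lower in the first period, where 45.3% of all probes were higher and 21.2% lower. In the second period 0 were higher and 6 lower, where 26.7% of all probes were higher and 44.8% lower. Of 5 neutrophil markers, 4 were detected on all early and late arrays, among them S100A8 and S100A12, which stratified epithelium can also express. Of the 5, 3 were higher in the first and 3 lower in the second period, beside 45.3% of all probes higher in the first and 44.8% lower in the second. At the middle stage CSF3R, CXCR2 and S100A9 were detected on 4, 1 and 0 of 9 arrays. The summed log2 level of 4 red blood cell markers was 6.70 to 7.62 at the middle stage against 5.29 to 6.09 at the early and 5.50 to 6.50 at the late stage. HBA and AHSP carried it and rose by 1.23 and 0.57 in the first period (adjusted *P* = 7.38e-07 and 0.00263), while HBB and ALAS2 were detected on 0 middle-stage arrays. The part of these markers in the results was not tested. In bulk tissue, fewer cells of a type and less RNA per cell cannot be told apart.

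Of the 39 SLC25A genes, 23 were detected on all 27 arrays, and 32 on all 9 arrays of at least 1 stage. No SLC25A spot was saturated or marked as an outlier by the scanner software. During the first period, 20 of 39 SLC25A genes passed an adjusted *P* of 0.05 in limma, 8 with a higher and 12 with a lower level at the middle stage. Of all probes, 66.5% passed, 45.3% higher and 21.2% lower, so the family had a smaller share of rises and a larger share of falls than the array. At least a 2-fold change was reached by 3 of the higher genes, against 23.9% of all probes, and by 7 of the lower ones, against 7.57%. The 7 lower ones were SLC25A5, SLC25A6, SLC25A11, SLC25A14, SLC25A17, SLC25A25 and SLC25A44. At the middle stage SLC25A44 was detected on 0 and SLC25A14 on 1 of 9 arrays, so their 2-fold sizes were not measured. The 3 higher ones were SLC25A2, SLC25A30 and SLC25A48. They were detected on 0, 5 and 0 early-stage and on 0, 5 and 0 middle-stage arrays, so these counts rest in part on signal at the background. The median log2 fold change was −0.15 for the 39 genes and 0.33 for all probes.

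During the second period, 25 of 39 SLC25A genes passed, 14 higher and 11 lower at the late stage, against 71.5% of all probes, 26.7% higher and 44.8% lower. With the 2-fold threshold there were 7 higher, against 9.9% of all probes, and 3 lower, against 29.2%. These were the same genes as in the first period with the direction turned, so the same limit of detection holds. The median was 0.25 for the family and −0.28 for all probes. Both periods share the middle-stage arrays, so the values of a gene in the first and second period are given side by side and are not independent of each other.

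Over the total period, 6 of 39 SLC25A genes passed, 3 higher and 3 lower at the late stage, against 20% of all probes, 10.9% higher and 9.02% lower. None of the 6 reached 2-fold, against 1.31% of all probes higher and 2.85% lower. The median was 0.018 for the family and 0.029 for all probes. The levels of the 9 early and the 9 late arrays overlapped for every SLC25A gene, while 6.47% of all probes had separate ranges. Ranges were separate for 5 SLC25A genes in the first period (12.9% of all probes) and for 8 in the second (20.6%).

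**Figure D1:**
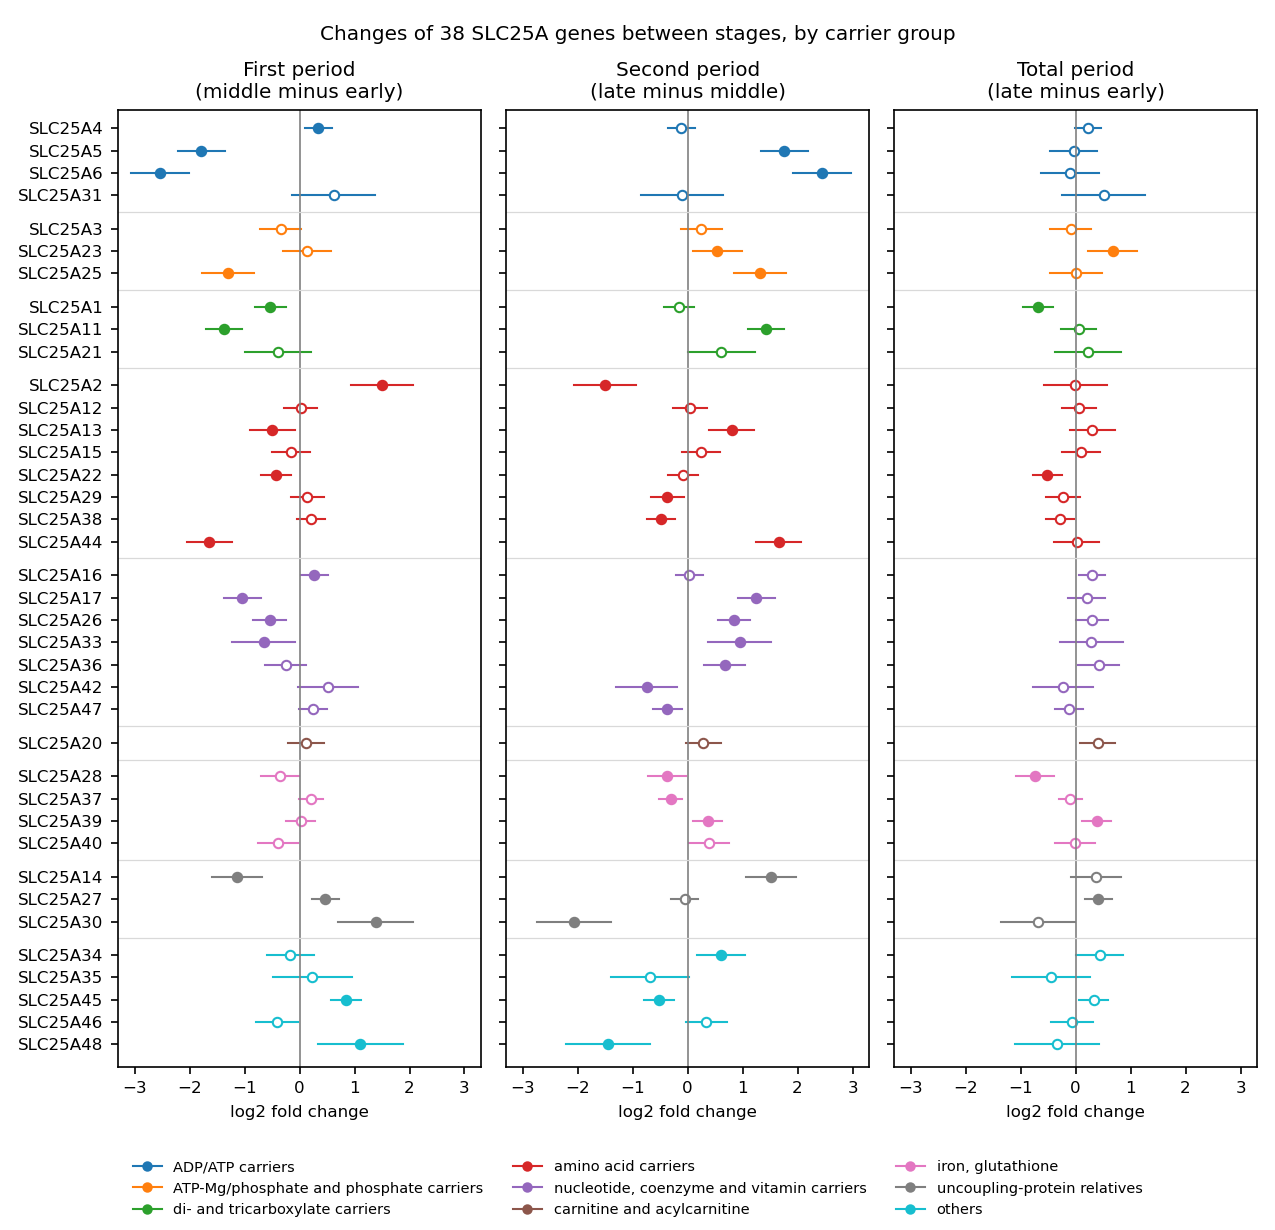
Log2 fold change (x axis) of 38 SLC25A genes in the first, second and total period, with 95% confidence intervals from limma, ordered and colored by carrier group. Filled points have an adjusted P below 0.05, and SLC25A6 and SLC25A5 lie farthest to the left in the first and farthest to the right in the second period.

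The brightness of the probes has to be set beside these counts. All probes were split by mean level into 10 groups of about equal size. In the dimmest group the median log2 fold change was 1.37 for the first and −1.39 for the second period, and in the brightest group it was 0.067 and 0.14. Among the 6797 probes detected on all arrays, 34.9% were higher and 26.9% lower in the first period, and of the 23 such SLC25A genes 4 were higher and 8 lower. In the second period 37.4% of these probes were higher and 30.7% lower, and 9 and 7 of the 23 SLC25A genes. The median log2 fold change of the 23 genes was −0.17 and then 0.25, against 0.077 and 0.091 for these probes. SLC25A2, which carries ornithine and related basic amino acids, and SLC25A48, a choline carrier, were in this dim range. SLC25A2 was detected on none of the 27 arrays and SLC25A48 on 1. SLC25A2 passed the test in both periods (log2 fold change 1.50 and −1.50), as did SLC25A48 (1.11 and −1.45), and no fold can be given for either because both sides of each comparison lay at the background.

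**Figure D2:**
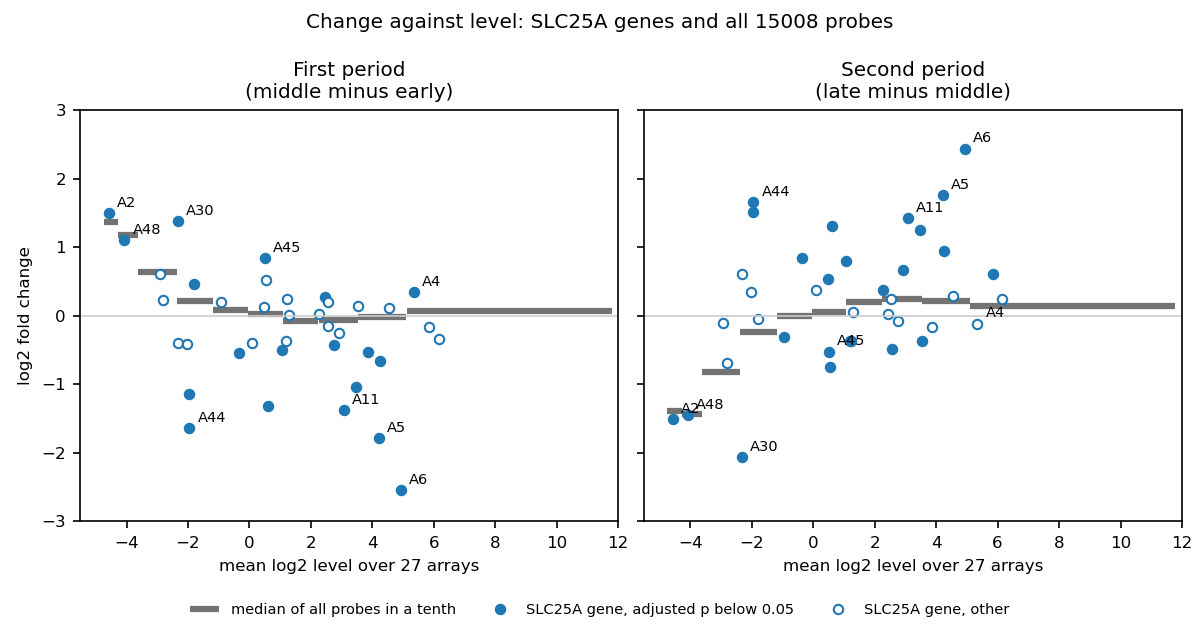
Log2 fold change (y axis) against the mean log2 level over 27 arrays (x axis) in the first and second period, for 38 SLC25A genes (points, filled where the adjusted P is below 0.05) and for all 15008 probes as the median of each of 10 groups by level (bars). The bars leave 0 in the dimmest groups, where SLC25A2 and SLC25A48 lie, while SLC25A5, SLC25A6 and SLC25A11 lie far from the bars at their level.

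The ADP/ATP carriers import ADP into the matrix and export ATP. Of the 4 measured, SLC25A5 and SLC25A6 fell in the first period and rose in the second, SLC25A4 rose in the first, and SLC25A31 did not pass the test in any comparison. The study singled out SLC25A5, SLC25A6, SLC25A11 and SLC25A17 on these same arrays, so their directions are no independent evidence. The lowest, median and highest log2 level of SLC25A6 was 5.27, 5.89 and 6.01 at the early stage, 1.52, 3.58 and 4.10 at the middle stage and 5.36, 5.74 and 5.96 at the late stage. Every middle-stage array was below every early-stage and every late-stage array, and the early and late arrays overlapped. The log2 fold change of SLC25A6 was −2.55 ± 0.25 (SE, n = 9 animals, limma adjusted *P* = 2.27e-07) in the first period, a 5.84-fold fall, lower in 9 of 9 animals. It was 2.44 ± 0.25 (adjusted *P* = 1.33e-07) in the second period, higher in 9 of 9 animals. The total-period value was −0.10 (95% interval −0.63 to 0.42, adjusted *P* = 0.834).

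Among all 15008 probes, 25 had a first-period change as low as that of SLC25A6 or lower, itself counted, and 5 of the 6797 probes detected on all arrays. SLC25A6 was one of those 6797. SLC25A5 had a lowest, median and highest level of 4.53, 4.87 and 5.01 at the early, 1.59, 3.26 and 3.64 at the middle and 4.42, 4.90 and 5.12 at the late stage. As with SLC25A6, the middle-stage range lay apart from both others, and animal 4 held the lowest value of both genes. SLC25A5 fell by 1.79 ± 0.20 on the log2 scale in the first period (adjusted *P* = 1.14e-06), a 3.45-fold change, in 9 of 9 animals. It rose by 1.76 ± 0.20 in the second period (adjusted *P* = 6.02e-07), in 9 of 9 animals. Its total-period value was −0.032 (95% interval −0.46 to 0.40, adjusted *P* = 0.947).

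SLC25A4, known as the heart and muscle form of the ADP/ATP carrier, had a narrow range. Its levels were 4.95, 5.13 and 5.36 at the early, 5.14, 5.47 and 6.06 at the middle and 5.21, 5.40 and 5.49 at the late stage (lowest, median and highest). The 3 ranges overlapped. SLC25A4 rose by 0.34 ± 0.12 on the log2 scale in the first period (adjusted *P* = 0.0144). In the second period its value was −0.11 ± 0.12 (adjusted *P* = 0.383), and over the total period 0.23 ± 0.12 (adjusted *P* = 0.182). SLC25A31 was detected on 2 early, 0 middle and 4 late arrays, and its values of 0.62, −0.10 and 0.51 had standard errors of 0.36. Of 6 smooth muscle markers, 3 were higher and 0 lower in the first period, where 45.3% of all probes were higher, and 0 were higher and 5 lower in the second, where 44.8% of all probes were lower. The summed log2 level of these 6 markers was 6.82 to 8.62, 6.66 to 9.76 and 6.98 to 7.74 at the early, middle and late stage, and its part in the SLC25A4 value was not tested.

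**Figure D3:**
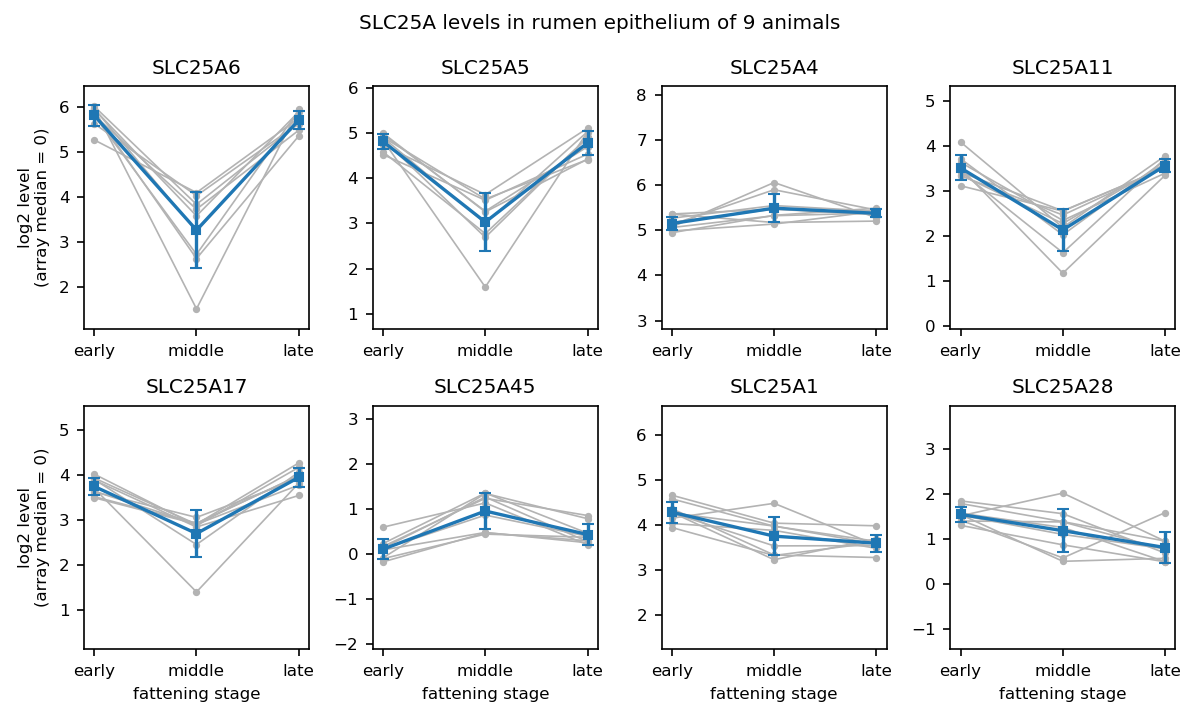
Log2 level relative to the array median (y axis) at each stage (x axis) for 8 SLC25A genes. Gray lines join the 3 biopsies of an animal and blue squares with bars give the mean ± SD of 9 animals. All y axes span the same number of log2 units, and SLC25A6 drops to a mean of 3.27 at the middle stage while SLC25A4 stays near 5.49.

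The changes of these 3 carriers on the same array were also compared with each other. This removes a scaling factor common to the array, but not a dependence on array brightness that differs between genes. The ratios are differences of the levels given above, so their tests add no independent evidence. The log2 ratio of SLC25A6 to SLC25A4 fell by 2.89 ± 1.06 (SD, n = 9) in the first period in 9 of 9 animals and rose by 2.56 ± 1.00 in the second in 9 of 9. The ratio of SLC25A5 to SLC25A4 fell by 2.13 ± 0.82 and rose by 1.87 ± 0.88, in 9 of 9 animals each time. For these 4 changes the exact two-sided sign-flip permutation test gave *P* = 0.00391, the smallest that 9 animals allow, and 0.00704 after adjustment over 9 tests. SLC25A6 also fell more than SLC25A5 in the first period, by 0.76 ± 0.58 in 7 of 9 animals (exact *P* = 0.0156, adjusted 0.0234), and rose more in the second, by 0.69 ± 0.26 in 9 of 9 (exact *P* = 0.00391, adjusted 0.00704). Over the total period the ratio of SLC25A5 to SLC25A4 was lower by −0.26 ± 0.28 in 8 of 9 animals (exact *P* = 0.0195, adjusted 0.0251), that of SLC25A6 to SLC25A4 changed by −0.33 ± 0.48 (exact *P* = 0.0781, adjusted 0.0879), and that of SLC25A6 to SLC25A5 by −0.073 ± 0.60 (exact *P* = 0.715).

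The middle-stage levels of some carriers varied with the brightness of the array. Over the 9 middle-stage arrays, the level of SLC25A5 had a Pearson *r* of 0.89 with the log2 median intensity (exact permutation *P* = 0.00246, adjusted 0.0192 over the 39 genes) and a Spearman rho of 0.80 (exact *P* = 0.0138, adjusted 0.0899). Without the arrays of animals 4 and 6, the farthest from the median brightness, *r* was 0.59, so the relation rests in part on them. For SLC25A6 *r* was 0.75 (exact *P* = 0.0242, adjusted 0.118) and rho 0.47 (exact *P* = 0.213, adjusted 0.518), and *r* was 0.34 without those animals. SLC25A4 had an *r* of −0.49 (exact *P* = 0.184, adjusted 0.362) and a rho of −0.78 (exact *P* = 0.0172, adjusted 0.0960), with −0.86 without them. Of 39 genes, 5 passed an adjusted *P* of 0.05 for *r*, with SLC25A47, SLC25A39, SLC25A42 and SLC25A45 higher on dimmer arrays (*r* = −0.93, −0.89, −0.88 and −0.82) and SLC25A5 lower. For none of the 39 genes did rho pass after adjustment, with 8 below 0.05 unadjusted. On the 7 middle-stage arrays of slide 2 alone, *r* was 0.96 for SLC25A5 and 0.93 for SLC25A6, and the 2 arrays of slide 3 were too few for a value. The part of array brightness in the changes between stages was not tested. Without animal 4 the first-period log2 fold change was −2.31 for SLC25A6 (limma adjusted *P* = 1.40e-07) and −1.60 for SLC25A5 (adjusted *P* = 5.05e-07).

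**Figure D4:**
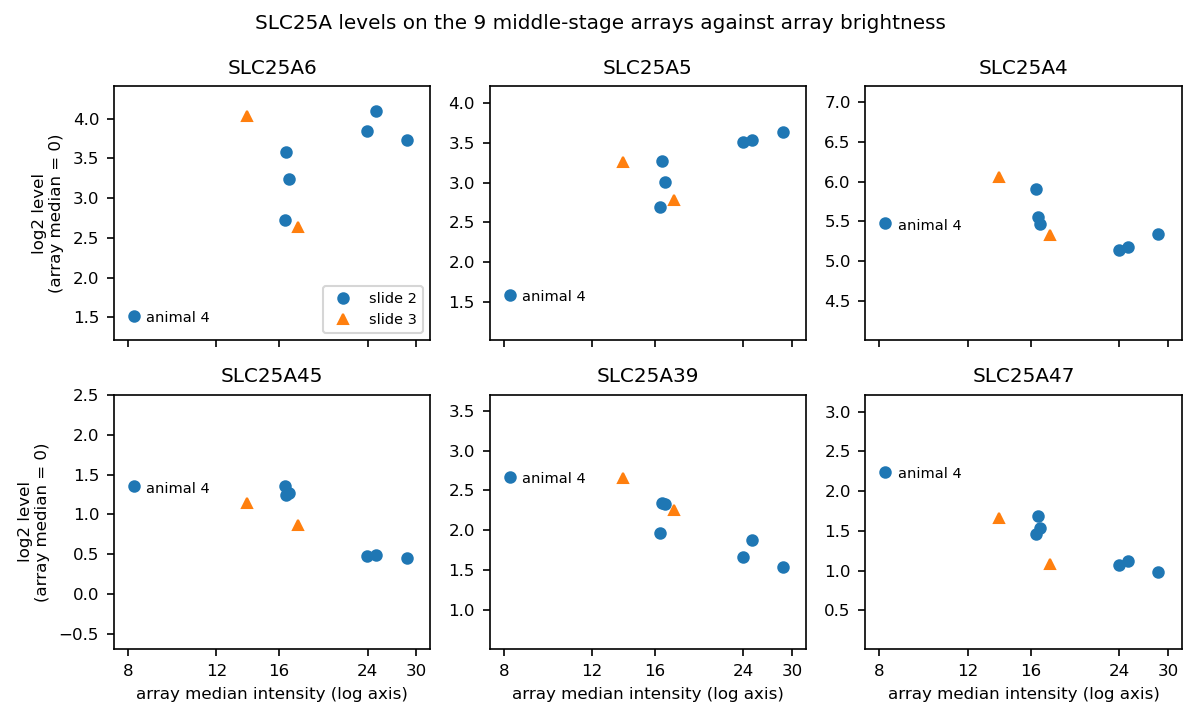
Log2 level relative to the array median (y axis) of 6 SLC25A genes on the 9 middle-stage arrays against the median intensity of the array (x axis, log scale), with circles for slide 2 and triangles for slide 3. Animal 4, on the dimmest array (median intensity 8.22), had the lowest levels of SLC25A6 (1.52) and SLC25A5 (1.59).

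Slide 2 held both stages of the first period. Within it, 1 early-stage array stood against 7 middle-stage arrays, and the log2 fold changes were −2.38 ± 0.80 for SLC25A6, −1.97 ± 0.68 for SLC25A5 and 0.36 ± 0.39 for SLC25A4 (limma adjusted *P* = 0.194, 0.195 and 0.624). Fitting the slide as a fixed block gave SLC25A6 a value of −0.93 ± 1.27 (adjusted *P* = 0.737) and SLC25A5 one of −1.72 ± 1.00 (adjusted *P* = 0.401). On the first scan day alone, a setting chosen after seeing the data, the values were −2.58 (adjusted *P* = 0.000635) and −1.79 (adjusted *P* = 0.000964), and SLC25A4 no longer passed (0.26, adjusted *P* = 0.141).

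The SLC25A genes whose levels varied most like SLC25A6 around the stage means, over all 27 arrays, were SLC25A5 (Pearson *r* = 0.78), SLC25A15 (0.69) and SLC25A11 (0.67). These correlations are descriptions across arrays that share slides and scaling.

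Phosphate enters the matrix through SLC25A3, and SLC25A23 and SLC25A25 exchange ATP-Mg for phosphate under control of calcium. SLC25A25 fell in the first period and rose in the second, SLC25A23 rose in the second and total period, and SLC25A3 did not pass the test in any comparison. The SLC25A25 level was 0.48, 1.09 and 1.31 at the early, −1.58, −0.24 and 0.95 at the middle and 0.51, 1.07 and 1.76 at the late stage (lowest, median and highest). The middle-stage values lay lower but reached into both other ranges, and the probe was detected on 6 of the 9 middle-stage arrays. The log2 fold change of SLC25A25 was −1.31 ± 0.23 (adjusted *P* = 7.16e-05) and then 1.32 ± 0.23 (adjusted *P* = 4.51e-05), lower and then higher in 9 of 9 animals. SLC25A3, among the brightest probes of the family, had stage means of 6.30, 5.96 and 6.21, and its first-period value was −0.34 ± 0.18 (adjusted *P* = 0.0959).

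The probe named SLC25A23 carries an accession that the current gene table assigns to SLC25A41, a neighboring carrier of the same kind, so its values may belong to either gene. Its level was −0.50, 0.33 and 0.58 at the early, −0.31, 0.18 and 1.45 at the middle and 0.10, 1.00 and 1.79 at the late stage. The ranges overlapped at all stages, with the late-stage values highest on average. It rose by 0.67 ± 0.21 on the log2 scale over the total period (adjusted *P* = 0.0310), in 8 of 9 animals, and by 0.54 ± 0.21 in the second period (adjusted *P* = 0.0292). The second-period call was lost under 13 of 20 alternatives (adjusted *P* of up to 0.153), among them the fits without animal 1, 4, 6, 7 or 9. With each array scaled to its 75th percentile the total-period call was lost (0.55, adjusted *P* = 0.0853), and without animal 1, 3, 4, 5, 6 or 7 it was lost too (0.61 to 0.70).

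The di- and tricarboxylate carriers link the tricarboxylic acid cycle with the cytosol. SLC25A11 exchanges 2-oxoglutarate for malate and serves the malate-aspartate shuttle, SLC25A1 exports citrate, and SLC25A21 carries 2-oxoadipate. SLC25A11 levels were 3.12, 3.43 and 4.09 at the early, 1.18, 2.28 and 2.56 at the middle and 3.35, 3.52 and 3.78 at the late stage. The middle-stage arrays were below all early and all late arrays. SLC25A11 fell by 1.38 ± 0.16 on the log2 scale in the first period (adjusted *P* = 1.01e-06) and rose by 1.43 ± 0.16 in the second (adjusted *P* = 2.64e-07), in 9 of 9 animals each time. Within slide 2 its first-period value was −1.09 ± 0.51 (adjusted *P* = 0.246).

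SLC25A1 took another course, with a fall in the first and over the total period and no call in the second. Its levels were 3.94, 4.27 and 4.66 at the early, 3.22, 3.88 and 4.48 at the middle and 3.27, 3.57 and 3.98 at the late stage. Of the early-stage values, the lowest alone lay within the late-stage range. SLC25A1 fell by 0.53 ± 0.13 in the first period (adjusted *P* = 0.00178) and by 0.69 ± 0.13 over the total period (adjusted *P* = 0.00115), in 9 of 9 animals over the total period, and its second-period value was −0.16 ± 0.13 (adjusted *P* = 0.292), which was 0.49 with normexp background correction. The first-period call was lost under 3 of 23 alternatives (−1.19 to −0.40 over all 23). The total-period call was lost with normexp (−0.46, adjusted *P* = 0.266) and under a random slide block (−0.71, adjusted *P* = 0.137). SLC25A21 was detected on 7 early, 1 middle and 7 late arrays and passed the test in no comparison (−0.39, 0.61 and 0.22).

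Among the 8 amino acid carriers, 1 was higher and 3 lower in the first period, 2 higher and 3 lower in the second, and 1 lower over the total period. The higher one in the first period was SLC25A2, which was detected on no array, and it was also among the lower ones in the second. Of all probes, 45.3% were higher and 21.2% lower in the first, 26.7% higher and 44.8% lower in the second, and 9.02% lower over the total period. SLC25A44, a carrier of branched-chain amino acids, was at −1.70, −1.41 and −0.997 at the early, −3.82, −3.20 and −1.97 at the middle and −1.67, −1.42 and −1.06 at the late stage. The middle-stage values lay below both other ranges, but at the middle stage the probe was detected on 0 of 9 arrays, against 9 of 9 at the other stages. Set against the lowest detected signal of each array, SLC25A44 was at least 1.18-fold lower in middle-stage than in early-stage biopsies. On the same basis it was at least 1.20-fold higher in late-stage than in middle-stage biopsies. These bounds were not tested. The limma fit of the measured levels gave log2 fold changes of −1.64 and 1.66 (adjusted *P* = 1.85e-06 and 7.15e-07). With normexp background correction these changes were 0.023 and −0.053 (adjusted *P* = 0.755 and 0.435).

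SLC25A22, a glutamate carrier, had levels of 2.69, 3.00 and 3.66 at the early, 2.07, 2.56 and 3.23 at the middle and 1.98, 2.58 and 2.96 at the late stage. It fell by 0.43 ± 0.13 in the first period (adjusted *P* = 0.00653) and by 0.51 ± 0.13 over the total period (adjusted *P* = 0.00823), in 9 of 9 animals in both comparisons, with overlapping ranges. The first-period call was lost in the 3 fits with a slide block or within slide 2 (−0.38 to −0.37, adjusted *P* = 0.134 to 0.781). The total-period call was lost with normexp (−0.28, adjusted *P* = 0.459) and under a random slide block (−0.52, adjusted *P* = 0.371). Its second-period value was −0.081 (adjusted *P* = 0.582) and turned to 0.47 with normexp (adjusted *P* = 0.0377). SLC25A38, which brings glycine into the matrix for heme synthesis, was at 2.30, 2.47 and 3.19, then 2.56, 2.78 and 3.00, then 2.02, 2.30 and 2.60. It fell by 0.48 ± 0.12 in the second period (adjusted *P* = 0.00156), in 9 of 9 animals, and only the highest late-stage value reached the middle-stage range. With normexp the value was 0.19 (adjusted *P* = 0.339).

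SLC25A13, the liver-type aspartate/glutamate carrier known as citrin, fell by 0.50 ± 0.20 (adjusted *P* = 0.0312) and rose by 0.80 ± 0.20 (adjusted *P* = 0.00128). SLC25A12, the aralar form, stayed between 0.017 and 0.066 in the 3 comparisons and passed in none (adjusted *P* of at least 0.774). SLC25A29, a carrier of basic amino acids, fell by 0.37 ± 0.14 in the second period (adjusted *P* = 0.0288). SLC25A15, an ornithine carrier of the urea cycle, did not pass in any comparison (−0.15, 0.25 and 0.095).

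Of 7 carriers of nucleotides, coenzymes and vitamins, 1 rose and 3 fell in the first period, 4 rose and 2 fell in the second, and 0 passed over the total period, beside the percentages of all probes given for the amino acid carriers. SLC25A17, the peroxisomal member of the family, which carries coenzyme A and related cofactors, had levels of 3.49, 3.70 and 4.02 at the early, 1.40, 2.91 and 3.06 at the middle and 3.55, 3.98 and 4.27 at the late stage. The middle-stage range was separate from both others, with animal 4 far below the remaining 8. SLC25A17 fell by 1.05 ± 0.16 in the first period (adjusted *P* = 2.46e-05) and rose by 1.25 ± 0.16 in the second (adjusted *P* = 2.02e-06), in 9 of 9 animals each time. A fixed slide block gave a first-period value of −0.31 ± 0.83 (adjusted *P* = 0.877), and slide 2 alone −0.93 ± 0.58 (adjusted *P* = 0.378).

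The pyrimidine nucleotide carriers SLC25A33 and SLC25A36 rose in the second period, by 0.94 ± 0.27 (adjusted *P* = 0.00473) and 0.67 ± 0.18 (adjusted *P* = 0.00213). SLC25A33 had fallen by 0.66 ± 0.27 in the first period (adjusted *P* = 0.0415). SLC25A26, the S-adenosylmethionine carrier, fell by 0.55 ± 0.14 (adjusted *P* = 0.00236) and rose by 0.85 ± 0.14 (adjusted *P* = 3.29e-05), with separate middle and late ranges. SLC25A42, a coenzyme A carrier, fell by 0.75 ± 0.26 in the second period (adjusted *P* = 0.0161), and SLC25A47 fell by 0.37 ± 0.12 (adjusted *P* = 0.0119). SLC25A16 rose by 0.27 ± 0.12 in the first period (adjusted *P* = 0.0464).

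SLC25A20 exchanges acylcarnitine for carnitine and so admits long-chain fatty acids to oxidation in the matrix. Its stage means were 4.37 ± 0.27, 4.49 ± 0.36 and 4.78 ± 0.24 (SD, n = 9). It did not pass the test in any comparison, and the total-period value was 0.40 (95% interval 0.084 to 0.73, adjusted *P* = 0.0708).

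The carriers linked to iron and glutathione passed in no first-period comparison. SLC25A28 and SLC25A37, the mitoferrins, import iron into the matrix. SLC25A28 levels were 1.31, 1.54 and 1.85 at the early, 0.51, 1.26 and 2.03 at the middle and 0.50, 0.78 and 1.59 at the late stage. Its late-stage values were mostly below the early range, with 1 exception, animal 9. SLC25A28 fell by 0.73 ± 0.16 over the total period (adjusted *P* = 0.00379), the largest fall of the family there, in 8 of 9 animals. Its second-period fall of 0.37 ± 0.16 (adjusted *P* = 0.0491) was not called under 12 of 20 alternatives. The total-period call was lost under a random slide block (−0.53, adjusted *P* = 0.459). SLC25A37, whose probe the current gene table gives under another locus name, fell by 0.30 ± 0.10 in the second period (adjusted *P* = 0.0110).

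SLC25A39, the mitochondrial glutathione carrier, had levels of 1.89, 2.16 and 2.38 at the early, 1.54, 2.25 and 2.67 at the middle and 2.34, 2.47 and 2.75 at the late stage. The late-stage values lay in the upper part of the early range or above it. SLC25A39 rose by 0.39 ± 0.13 over the total period (adjusted *P* = 0.0357), in 9 of 9 animals, and by 0.37 ± 0.13 in the second period (adjusted *P* = 0.0135). The second-period call was lost under 7 of 20 alternatives (adjusted *P* of up to 0.330). With 75th percentile scaling the total-period value was 0.27 (adjusted *P* = 0.173), and in 7 of the 9 fits without 1 animal it did not pass (0.36 to 0.42 over all 9). Its relative SLC25A40 did not pass in any comparison (−0.39, 0.38 and −0.0090).

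The relatives of the uncoupling proteins were dim probes. SLC25A14 was detected on 9 early, 1 middle and 9 late arrays. Its fitted log2 fold changes were −1.14 ± 0.22 (adjusted *P* = 0.000177) and 1.52 ± 0.22 (adjusted *P* = 6.61e-06), but the lowest detected signal of the middle-stage arrays averaged −1.66, above its early-stage mean of −1.72, so these sizes are not measured changes. SLC25A30 was detected on 5, 5 and 2 arrays. Its fitted values were a rise of 1.38 ± 0.33 (adjusted *P* = 0.00114) and a fall of 2.07 ± 0.33 (adjusted *P* = 1.82e-05). With so few arrays above background at each stage, these sizes are uncertain. SLC25A27 was detected on 8, 5 and 8 arrays, with levels of −3.17, −1.98 and −1.42, then −2.33, −1.61 and −1.10, then −2.48, −1.64 and −1.22. Its ranges overlapped at all stages. SLC25A27 rose by 0.46 ± 0.12 in the first (adjusted *P* = 0.00211) and by 0.41 ± 0.12 over the total period (adjusted *P* = 0.0180). The first-period call was lost under 3 of 22 alternatives (0.23 to 1.55 over all 22). The total-period call was lost with 75th percentile scaling (0.30, adjusted *P* = 0.0628), with normexp (0.015, adjusted *P* = 0.894) without the animal block (0.41, adjusted *P* = 0.153) and without animal 3, 6 or 7.

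SLC25A45 was the member with the largest rise in the first period among those changed the same way in all animals and detected on all 9 arrays of a stage. It has been linked to the uptake of methylated amino acids. Its levels were −0.17, 0.12 and 0.60 at the early, 0.45, 1.14 and 1.36 at the middle and 0.21, 0.38 and 0.86 at the late stage. Early and middle ranges met at the highest early-stage value alone. SLC25A45 rose by 0.85 ± 0.13 in the first period (adjusted *P* = 2.07e-05) and fell by 0.52 ± 0.13 in the second (adjusted *P* = 0.00127), in 9 of 9 animals each time. Within slide 2 the first-period value was 0.35 ± 0.49 (adjusted *P* = 0.725), and with normexp it was 0.24. Outside the groups above, SLC25A34 rose by 0.61 ± 0.21 in the second period (adjusted *P* = 0.0126), and SLC25A35 and SLC25A46 passed in no comparison.

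The calls over the total period depended on how the arrays were scaled. Relative to the 75th percentile instead of the median, every value moved by 0.062, −0.18 and −0.12 in the first, second and total period. Then 25 genes passed in the second period as before, but with 11 higher and 14 lower. Over the total period 4 passed, all lower, namely SLC25A1, SLC25A22, SLC25A28 and SLC25A38, and 0 higher. The first-period split was 11 higher and 12 lower.

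Genes that work with the carriers were read from a list of 32 on the array. Of these, 8 rose and 16 fell in the first period, 15 rose and 8 fell in the second, and 2 rose and 1 fell over the total period, beside the percentages of all probes given above. The outer membrane channels, through which the substrates of the carriers pass, fell and rose together. VDAC1, VDAC2 and VDAC3 fell by 0.47, 0.61 and 0.37 in the first period and rose by 0.76, 0.87 and 0.79 in the second (adjusted *P* of at most 0.0307). Each was detected on all 27 arrays. Among the enzymes of the malate-aspartate shuttle that SLC25A11 serves, the mitochondrial MDH2 and GOT2 fell by 2.03 ± 0.23 and 0.67 ± 0.14 (adjusted *P* = 1.14e-06 and 0.000368) and rose by 1.87 ± 0.23 and 0.88 ± 0.14 (adjusted *P* = 1.29e-06 and 1.83e-05). GOT2 was detected on all 27 arrays but MDH2 on only 5 of the 9 middle-stage arrays, where its mean of −1.64 lay near the average lowest detected signal of −1.66, so the size of its change is uncertain. The cytosolic GOT1 did not pass in the first period (−0.16, adjusted *P* = 0.286), and MDH1 was detected on no array of the early or middle stage.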

How the data were processed

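RNA of 27 RE biopsies was extracted with TRIzol and labeled with cyanine 3 by the authors, who scanned the arrays with Agilent Feature Extraction (version 9.5 in the submitters' processing notes, 11.0.1.1 in the file headers). The deposited intensity of a spot is background-subtracted and linear, and the authors' files also hold deposited 0 or 1 flags for signal well above background, saturation and outliers, used here like a score. A deposited table of log2 values (column medians −3.07 to −2.60) lay within 0.0806 of the 75th percentile scaling of the same arrays and served as an alternative.

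Log2 intensity minus the array median was analysed with R 4.3.3 and limma 3.58.1, with 1 mean per stage, the animal as a block and Benjamini-Hochberg adjustment over 15008 probes. Spots marked as outliers were missing and saturated spots kept. Arrays were paired by the number in their label, which was taken as the animal because the paper used paired tests on its 9 cattle. The labels themselves do not say that a number is the same animal at each stage. Deviations of arrays of the same animal had a mean correlation of 0.158 (−0.151 to 0.461, above 0 in 24 of 27 pairs), against −0.020 for other pairs. No 2 arrays were alike beyond a correlation of 0.990. Precision is limited by 9 arrays per stage and signal over background. The slide was also fitted as a random block with statmod 1.5.0. 34 of 39 accessions matched the RefSeq gene table, 2 under another symbol.

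Genes described in full were the 4 the study names, those called over the total period, and per comparison up to 3 with the largest rise and fall among genes called, changed the same way in 9 animals and detected on every array of at least 1 stage. The other genes were added so that the members are accounted for, except 1, which enters the counts over the family but is not reported here by itself. Members and lists were chosen with earlier results of these data known. The procedure was tested on simulated data. Alternatives were other scalings, quantile normalization, normexp (offset 50), no dim probes, outlier spots kept, the log2 table, no animal block, slide blocks, 2 stages in the fit, the methods' t-test and each animal left out.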

Additional observations from a re-analysis of the deposited data

Results flagged for a closer look

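In 13 of 117 groups of 9 arrays (39 genes at 3 stages), the highest or lowest level stood apart from the nearest other by more than Dixon's test allows at its 95% critical value. Chance gives about 1 in 20 groups, or 5%. At the middle stage these were SLC25A5 (log2 level 1.59) and SLC25A17 (1.40) in animal 4, whose array was the dimmest, SLC25A3 in animal 8 (4.34), and SLC25A31 (−0.53) and SLC25A40 (−1.71) in animal 9. At the late stage they were SLC25A22 (1.98) and SLC25A42 (0.86) in animal 1, SLC25A14 (−1.56) and SLC25A48 (−2.76) in animal 6, SLC25A27 in animal 7 (−2.48) and SLC25A28 in animal 9 (1.59). At the early stage they were SLC25A25 in animal 2 (0.48) and SLC25A48 in animal 7 (−2.48).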

How the results depend on the processing

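The count of SLC25A genes called stayed within 1.5 times 20, 25 and 6 in the 3 comparisons except as follows, and the cause was not tested. In the first period it was 12 with a random slide block, and 0 with a fixed slide block or within slide 2, where limma gave 8 and 5 genes at an unadjusted *P* below 0.05. In the second period it was 15 with the random slide block. Over the total period it was 0 with the random slide block (4 genes at an unadjusted *P* below 0.05), 3 with normexp background correction, 10 with the methods' t-test after Benjamini-Hochberg adjustment and 12 with 2 stages in the fit. Without 1 animal the counts were 17 to 22, 22 to 26 and 3 to 9, with 3 over the total period without animal 3, 6 or 7, all of them lower. The fit with no replicate block called 22, 24 and 7 genes, so the pairing by animal changed no count by over 1.5 times. Among single genes described in full it changed the total-period call of SLC25A27 (0.41, adjusted *P* = 0.153) and the second-period call of SLC25A28 (−0.37, adjusted *P* = 0.05001), and no other call.

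With 75th percentile scaling, with the median of the probes detected on all arrays, and with the deposited log2 table, the second-period split was 11 higher and 14 lower in place of 14 and 11, and the total-period split 0 and 4 in place of 3 and 3. Quantile normalization gave 1 and 5 over the total period. On the first scan day alone, added after seeing the data, 16 genes were called, 4 higher and 12 lower.

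Of 816 values of single genes under the alternatives, 670 kept their direction and side of the threshold, 31 did not pass before or after and changed sign, 91 lost and 20 gained the call, and 4 reversed, all 4 with normexp background correction. These were SLC25A44 (0.023 for the first and −0.053 for the second period), and in the second period SLC25A38 (0.19) and SLC25A22 (0.47). No value arose from another probe of the same gene, since each gene had 1 probe. The slide could be fitted as a fixed block, and slide 2 or the first scan day used alone, only for the first period. Signal over background limits the changes of SLC25A2, SLC25A14, SLC25A21, SLC25A30, SLC25A31, SLC25A35, SLC25A44, SLC25A46 and SLC25A48, most of all at the middle stage.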

Other observations

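Other genes that supply or import the carriers were read from the same list. BRP44L, which encodes the MPC1 subunit of the mitochondrial pyruvate carrier, fell by 1.14 ± 0.17 (SE) on the log2 scale in the first period (limma adjusted *P* = 1.74e-05) and rose by 1.16 ± 0.17 in the second (adjusted *P* = 7.97e-06), in 9 of 9 animals each time. The probe of its partner BRP44 (MPC2) was detected on no late-stage array.

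Around SLC25A20, the enzymes of the carnitine shuttle were each detected on all 27 arrays and went different ways. The matrix enzymes CRAT and CPT2 fell by 1.52 and 0.66 in the first period (adjusted *P* = 1.42e-05 and 0.00272) and rose by 1.50 and 0.84 in the second (adjusted *P* = 9.12e-06 and 0.000251). The outer membrane enzymes CPT1A and CPT1B rose by 1.07 and 0.39 (adjusted *P* = 0.000936 and 0.0359) and fell by 0.89 and 0.64 (adjusted *P* = 0.00318 and 0.00134). CPT1C did not pass in either period (0.20 and −0.20).

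Of 10 genes that import carrier proteins, 2 rose and 4 fell in the first period and 3 rose and 1 fell in the second, beside a median log2 fold change of −0.083 and 0.19. Of all probes, 45.3% rose and 21.2% fell in the first and 26.7% rose and 44.8% fell in the second period. The receptor TOMM20 fell by 0.91 (adjusted *P* = 0.000229) and rose by 1.42 (adjusted *P* = 1.45e-06), and the pore TOMM40 fell by 0.84 and rose by 0.63 (adjusted *P* = 8.49e-05 and 0.000826). The 2 that rose in the first period were TIMM13 (0.40, adjusted *P* = 0.00692, 9 of 9 animals), a chaperone of the intermembrane space, and TOMM22, which was detected on no array. The probes of UCP1 and UCP3, the brown-fat and muscle uncoupling proteins, were detected on no array either. UCP2 was detected on 8 early, 0 middle and 7 late arrays. Its fitted log2 fold changes were −2.23 ± 0.27 (adjusted *P* = 1.77e-06) and 1.51 ± 0.27 (adjusted *P* = 5.77e-05) in the first and second period. Their sizes are uncertain because the middle-stage signal was not detected.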
